A study of Rattus norvegicus with 8 samples.

Results

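Circular RNAs (circRNAs) were measured in bone around titanium implants, and those described here come from host genes that gave a single circle. They were chosen from the deposited circRNA table as the rows whose host gene name occurs exactly once. This rule uses names alone and no measured value. It takes 273 of the 774 circRNAs (35.3%), from 273 of 355 host genes. The other 501 circRNAs come from 82 genes with several circles each, up to 107 for the immunoglobulin gene Ighm. In the hyperlipidemic group, 4 libraries were made from femur bone of male Wistar rats fed a high-fat diet for 8 weeks. In the normal group, 4 libraries came from male Wistar rats on a normal diet over the same weeks. All rats were 12 to 13 weeks old by the labels, carried root-form implants in both femoral shafts, and were sampled 10 days after implantation. The sequenced RNA was total RNA without ribosomal RNA, and the labels mention removal of muscle but not of marrow. The labels name no separate animals for the libraries, and the p-values below measure only the spread between these 8 libraries, which may be technical.

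A circRNA forms when the end of a downstream exon is joined to the start of an upstream one, an event called back-splicing. The closed loop has no cap and no poly(A) tail, which makes it resistant to exonucleases, and it is therefore often more stable than the linear mRNA of the same gene. Back-splicing competes with linear splicing and is helped by base pairing between repeats in the flanking introns and by RNA-binding proteins such as QKI and MBNL1, and hindered by ADAR and DHX9. Many circles come from long, multi-exon, widely expressed genes, and some, such as the circle of Hipk3, are known from several mammals.

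Circle positions and back-splice junction sequences were not used here, so a circle is identified by its host gene. The circles of Wdr26, Eif4g3, Rnf14 and Dlg1 were the members called in the test between the groups described below. They entered that test through the hyperlipidemic libraries alone, so they had to differ once they were let in. Several other settings given below lost these calls. The calls therefore serve here only to choose examples. The promoters of these genes are shown because a circle is spliced from transcripts of its host gene. Each is the RefSeq sequence of rat build GRCr8 from 250 bases before to 50 bases after the gene start, 5′ to 3′ on the strand of the gene. Wdr26 is at chr13:95503381-95503680 on the minus strand, Eif4g3 at chr5:155481128-155481427 on the plus strand, Rnf14 at chr18:30383595-30383894 on the plus strand and Dlg1 at chr11:82607748-82608047 on the minus strand. Capitals mark the GC box GGGCGG, searched on both strands, so that a box on the other strand reads CCGCCC.
Wdr26: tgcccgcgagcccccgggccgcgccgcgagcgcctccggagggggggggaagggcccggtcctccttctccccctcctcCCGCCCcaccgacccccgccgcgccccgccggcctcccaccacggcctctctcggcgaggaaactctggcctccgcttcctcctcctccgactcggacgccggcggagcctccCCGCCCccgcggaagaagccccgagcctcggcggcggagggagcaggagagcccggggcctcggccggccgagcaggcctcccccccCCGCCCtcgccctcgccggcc
Eif4g3: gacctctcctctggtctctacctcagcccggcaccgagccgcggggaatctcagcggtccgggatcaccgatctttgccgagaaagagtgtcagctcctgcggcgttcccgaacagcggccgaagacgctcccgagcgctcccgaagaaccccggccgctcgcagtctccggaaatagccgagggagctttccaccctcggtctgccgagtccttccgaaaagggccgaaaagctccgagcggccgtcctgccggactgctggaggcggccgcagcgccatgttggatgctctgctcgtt
Rnf14: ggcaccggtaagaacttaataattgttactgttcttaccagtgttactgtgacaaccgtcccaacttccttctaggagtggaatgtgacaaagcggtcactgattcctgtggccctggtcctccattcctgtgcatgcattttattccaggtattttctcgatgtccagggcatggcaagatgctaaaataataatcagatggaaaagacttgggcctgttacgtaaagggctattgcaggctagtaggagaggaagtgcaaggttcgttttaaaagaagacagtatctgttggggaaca
Dlg1: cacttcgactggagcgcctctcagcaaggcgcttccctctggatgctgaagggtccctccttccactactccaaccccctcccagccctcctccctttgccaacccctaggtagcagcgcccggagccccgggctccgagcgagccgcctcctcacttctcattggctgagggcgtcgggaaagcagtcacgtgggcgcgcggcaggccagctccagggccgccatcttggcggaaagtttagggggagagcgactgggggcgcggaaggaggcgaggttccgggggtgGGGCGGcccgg
The Wdr26 window has 81.3% G and C and 3 GC boxes, the Dlg1 window 69.0% and 1 box, the Eif4g3 window 66.0% and none of these letters, and the Rnf14 window 44.7% and none. The Dlg1 window also holds CCAAT on the other strand, where it reads ATTGG in the line above. The letters AGATAA, searched on both strands, are in none of these 4 windows.

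Libraries differed in how many circRNAs were above 0. Over all 774 circRNAs the count ranged from 424 to 739 in hyperlipidemic libraries and from 107 to 521 in normal libraries (exact permutation test, two-sided, p = 0.0571, adjusted 0.114 over 4 library measures; the smallest p that 4 against 4 allows is 0.0286). The number of genes above 0 overlapped more, at 13423 to 16773 in hyperlipidemic and 12313 to 16729 in normal libraries (exact permutation p = 0.371). Short loci, of at most 1000 bp, held 64.6% ± 4.43 of gene FPKM in hyperlipidemic and 75.6% ± 7.72 in normal libraries (SD, n = 4 each; exact permutation p = 0.0571). The unit is FPKM, fragments scaled to length and library size; no read counts were used, and the depth of each library is unknown. A value of 0 can be a failed estimate, so it is given as listed at 0. Markers of bone-forming cells summed to 1342 to 2295 FPKM in hyperlipidemic and 2745 to 4438 FPKM in normal libraries (11 of 12 with a row), and each of the 11 had the lower mean in the hyperlipidemic group. All 10 measured markers of red cell precursors had the higher mean there, at 754 to 1344 FPKM in sum against 594 to 989 FPKM in normal libraries. Fat cell markers summed to 76.0 to 336 FPKM in hyperlipidemic and 8.71 to 60.8 FPKM in normal libraries (7 of 7 higher), megakaryocyte markers to 155 to 334 and 19.1 to 171 FPKM (6 of 6 higher), and skeletal muscle markers to 1.85 to 74.8 and 0.193 to 21.8 FPKM (8 of 9 higher). Granulocyte markers overlapped, at 9132 to 11912 FPKM in hyperlipidemic and 9167 to 11493 FPKM in normal libraries (1 of 6 higher). The part of these cell types and of short loci in the circRNA results was not tested, and in bulk bone fewer cells of a type and less RNA per cell cannot be told apart.

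Circles of single-circle hosts were listed above 0 more often in the hyperlipidemic libraries, apart from normal replicate 2. Of the 273, hyperlipidemic libraries 1 to 4 held 255, 258, 141 and 198 above 0. Normal libraries 1 to 4 held 37, 171, 54 and 35. The groups overlapped, since normal replicate 2 lay above hyperlipidemic replicate 3. As shares these are 93.4%, 94.5%, 51.6% and 72.5% in hyperlipidemic libraries and 13.6%, 62.6%, 19.8% and 12.8% in normal libraries. The circles of several-circle hosts had shares of 93.6%, 96.0%, 56.5% and 74.1% in hyperlipidemic and 13.97%, 69.9%, 25.9% and 17.0% in normal libraries. Both kinds of circle thus followed the same order of libraries within the hyperlipidemic group, and the difference between the kinds was not tested. Each of the 774 deposited rows is above 0 in at least 3 libraries of at least 1 group, so circles seen more sparsely are not in the table.

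**Figure D1:**
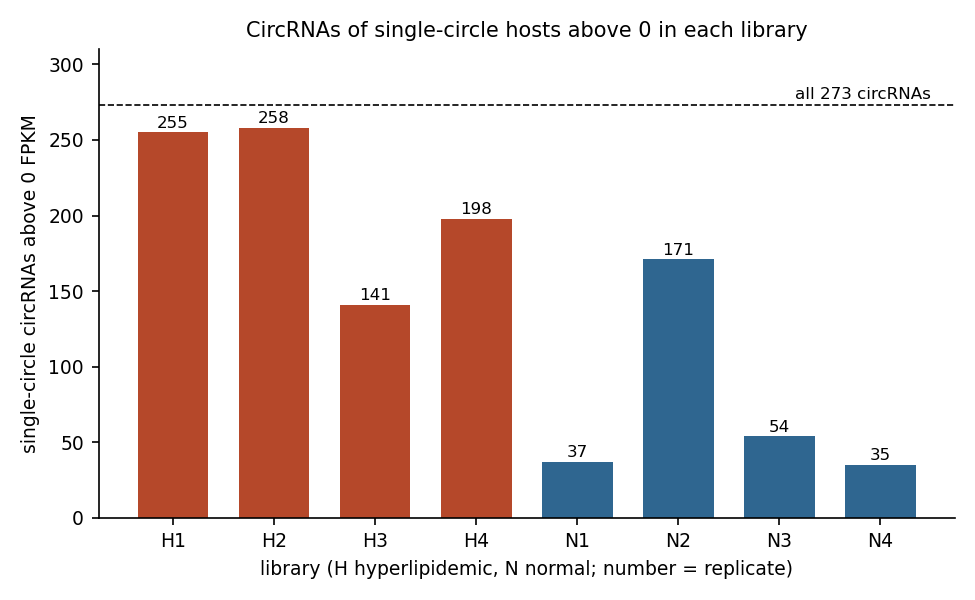
Number of the 273 single-circle circRNAs listed above 0 FPKM in each library (bars start at 0; H hyperlipidemic, N normal, number = replicate; dashed line, all 273). The hyperlipidemic bars stand at 255, 258, 141 and 198, and the normal bars at 37, 171, 54 and 35, with N2 above H3.

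Members also summed to 150, 105, 89.3 and 110 FPKM in hyperlipidemic libraries and to 21.1, 89.7, 34.7 and 17.1 FPKM in normal libraries, and normal replicate 2 again lay within the hyperlipidemic range. They made up 17.8%, 16.8%, 16.5% and 16.8% of all circRNA FPKM in hyperlipidemic libraries, and 25.7%, 15.6%, 11.3% and 9.63% in normal libraries. The share was even across the hyperlipidemic libraries and scattered in the normal ones. The median FPKM of those members that were above 0 was 0.296, 0.198, 0.326 and 0.267 in hyperlipidemic and 0.187, 0.214, 0.304 and 0.173 in normal libraries. Hyperlipidemic replicate 2 lay below normal replicates 2 and 3 in this median.

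Across the libraries of each group, 260 members were above 0 in at least 3 hyperlipidemic libraries and 29 in at least 3 normal libraries, with 16 in both. That leaves 244 that met this only in the hyperlipidemic group and 13 only in the normal group. All 4 hyperlipidemic libraries held 55 members, and all 4 normal libraries held 7. Those 7 were Arl15, Camta1, Dgkh, Hipk3, Nf1x, St3gal5 and Xpo7. No normal library held 93 members and no hyperlipidemic library held 2. Of 99 members above 0 in exactly 1 normal library, 91 were above 0 in normal replicate 2. Of 205 members above 0 in exactly 3 hyperlipidemic libraries, 119 were at 0 in replicate 3 and 62 in replicate 4. Values at 0 were thus most frequent in replicate 3 among hyperlipidemic libraries, and least frequent in replicate 2 among normal ones.

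**Figure D2:**
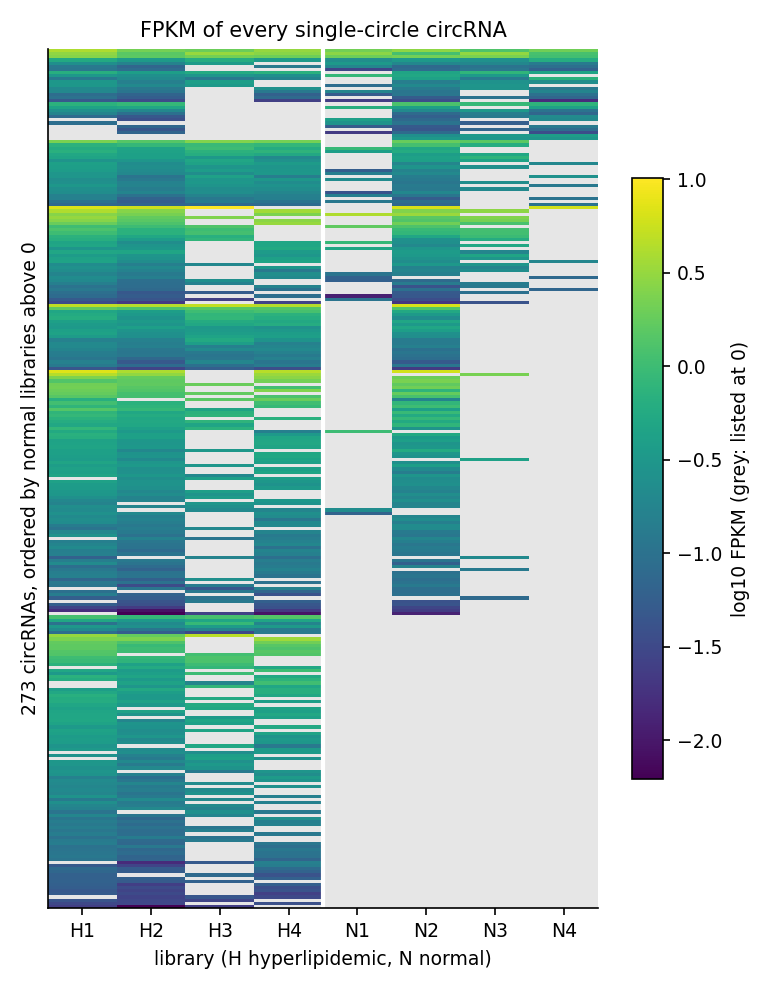
FPKM of each of the 273 single-circle circRNAs (rows, ordered by the number of normal libraries above 0) in each library (columns; H hyperlipidemic, N normal), as log10 FPKM, with values listed at 0 in grey. Grey fills most of N1, N3 and N4, where 37, 54 and 35 rows are coloured, and the 93 lowest rows are grey in all normal libraries.

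Members whose groups did not overlap were all higher in the hyperlipidemic libraries. There were 17 of 273, beside 53 of all 774 circRNAs (6.85%), and 0 members lay wholly higher in normal (0% of the 774). The hosts of these 17 include Mdm2, the ubiquitin ligase of p53, Rnf14 and Rnf121, RING-type ubiquitin ligases, and Ube2k, a ubiquitin-conjugating enzyme. They include Ino80, the ATPase of a nucleosome remodeller, Ash1l, a histone methyltransferase, and Ppp3cc, a catalytic subunit of calcineurin. Further hosts among them were Acer3, Agtpbp1, C2cd3, Dlg1, Eif4g3, Epb4.1l5, Eya3, Trappc6b and Wdr26. Circular Ino80 had 0.626, 0.274, 0.843 and 0.631 FPKM in hyperlipidemic libraries and 0.23 FPKM in normal replicate 2, with the other normal libraries listed at 0 (adjusted p = 0.168). Circular Mdm2 was at 0.175, 0.116, 0.213 and 0.199 FPKM in hyperlipidemic libraries, against 0.094 FPKM in normal replicate 2 and 0 elsewhere (adjusted p = 0.174). In both of these the gap between the lowest hyperlipidemic and the highest normal library was small beside the spread within the hyperlipidemic group.

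The test between the groups was a limma fit over all circRNAs above 0 in at least 4 libraries, on log2(FPKM + 0.1), with Benjamini-Hochberg adjustment and a call at an adjusted p under 0.05. It covered 568 circRNAs, 184 of them members; the other 89 members were above 0 in exactly 3 libraries and got no test. The 4 members called, all higher in hyperlipidemic libraries, stand beside 14 of 568 called in all (2.46%), and 0 were called lower (0% of the 568). Unadjusted p was under 0.05 for 31 of 184 members with higher values (16.8%), beside 93 of all 568 (16.4%), and for 1 with lower values, beside 1 of 568. The members called passed the filter through the hyperlipidemic libraries alone, so a circle at 0 in every normal library had to differ once it was let in. Of the 184 members tested, 166 had a log2 difference above 0 (median 0.82, beside 1.15 over all 568). The numbers were 160 after median-of-ratios scaling (medians 0.66 and 0.92), 141 after scaling to total circRNA FPKM (0.53 and 0.72) and 48 after quantile normalization (-0.36 and -0.14), where the median turned to lower. Wdr26 encodes a WD-repeat protein of the CTLH ubiquitin ligase complex. Its circle had 1.13, 0.863, 1.17 and 1.40 FPKM in hyperlipidemic libraries and was listed at 0 in all 4 normal libraries (limma adjusted p = 0.0258). Eif4g3 encodes a scaffold of translation initiation. Its circle had 0.323, 0.254, 0.372 and 0.351 FPKM in hyperlipidemic libraries and was listed at 0 in all normal ones (adjusted p = 0.0258). Rnf14 encodes a ubiquitin ligase that binds the androgen receptor. Its circle had 0.511, 0.334, 0.491 and 0.482 FPKM in hyperlipidemic libraries and was listed at 0 in all normal ones (adjusted p = 0.0258). Dlg1 encodes a membrane scaffold of cell polarity. Its circle had 0.211, 0.112, 0.171 and 0.124 FPKM in hyperlipidemic libraries and was listed at 0 in all normal ones (adjusted p = 0.0261). For Dlg1 the call was lost without the trend in the prior variance (adjusted p = 0.118), and quantile normalization turned the log2 difference to -0.028. No fold is given for a group listed at 0. With every circRNA tested and no filter, 80 of 273 members were called higher, 72 of them among the 89 above 0 in 3 libraries, beside 218 of all 774 (28.2%). In that fit 2 members were called lower, beside 221 of the 774 circRNAs called in either direction. With 1 in place of 0.1 added, after scaling to total circRNA FPKM, after quantile normalization, and with the replicate number as a block, 0 were called. Leaving out normal replicate 2 gave 32 of 109 members called higher, beside 92 of 349 circRNAs (26.4%). Of 99 members above 0 in exactly 1 normal library, 91 have that value in replicate 2. Without it these 91 are at 0 in every normal library left, and those still tested passed the filter through hyperlipidemic libraries alone. The filter thus bears on this count as on the 4 calls. Leaving out any other library gave 0; without a hyperlipidemic library these 4 circles are above 0 in 3 libraries and fall under the filter, and without normal replicate 1, 3 or 4 the highest of their adjusted p was 0.106.

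Circles of 2 more hosts, Rnf121 and Ppp3cc, were above 0 in every hyperlipidemic and in no normal library and missed the threshold. Circular Rnf121 had 0.101, 0.216, 0.872 and 0.176 FPKM in hyperlipidemic libraries, replicate 3 standing far above the others (adjusted p = 0.113). Circular Ppp3cc had 0.0893, 0.056, 0.0305 and 0.126 FPKM there (adjusted p = 0.144). In the normal libraries both were listed at 0.

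At the other end, 2 members had no hyperlipidemic library above 0. Nfatc1 encodes the transcription factor that drives osteoclast formation. Its circle was listed at 0 in all 4 hyperlipidemic libraries and had 0.329, 0.304 and 0.299 FPKM in normal replicates 2 to 4, with 0 in replicate 1. Its linear host had 10.1, 11.2, 6.44 and 8.38 FPKM in hyperlipidemic libraries and 21.4, 14.1, 10.2 and 11.3 FPKM in normal ones (log2 difference -0.57, limma adjusted p = 0.414). The host was thus highest in normal replicate 1, where its circle was listed at 0. Fam65b encodes an inhibitor of the small GTPase RhoA. Its circle was at 0 in all hyperlipidemic libraries and in normal replicate 1, and at 0.249, 0.331 and 0.383 FPKM in normal replicates 2 to 4. Both fell under the filter of 4 libraries and have no test in the fit with that filter. The lowest p among lower members belonged to Rnls, the gene of renalase, whose circle had 0.0376 FPKM in hyperlipidemic replicate 2 and 0 in the other 3. In the normal libraries it had 0.409, 0.0776, 0 and 0.211 FPKM (log2 difference -1.09 ± 0.45 SE, adjusted p = 0.244, unadjusted 0.0306).

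Circles with a value in every library showed no difference that passed the test. Hipk3, a nuclear serine-threonine kinase gene, gave 2.65, 1.59, 2.1 and 1.96 FPKM in hyperlipidemic libraries and 1.93, 2.1, 2.32 and 1.09 FPKM in normal ones (2.08 ± 0.44 and 1.86 ± 0.54 FPKM, SD, n = 4 each; adjusted p = 0.883). Xpo7, a nuclear export receptor abundant in red cell precursors, gave 2.93, 1.52, 3.28 and 2.69 FPKM in hyperlipidemic libraries. In normal libraries its circle had 2.80, 1.16, 3.04 and 1.18 FPKM (adjusted p = 0.743). The circle of Nf1x, so spelled in the files, had 4.08, 2.17, 1.95 and 3.14 FPKM in hyperlipidemic and 2.09, 2.85, 1.32 and 2.05 FPKM in normal libraries (adjusted p = 0.737). That of Dgkh, a diacylglycerol kinase, had 0.555, 0.351, 0.612 and 0.344 FPKM in hyperlipidemic and 0.243, 0.338, 0.263 and 0.604 FPKM in normal libraries (adjusted p = 0.76). In all 4 the groups overlapped, and the log2 differences of 0.18 (Hipk3), 0.42 (Xpo7), 0.42 (Nf1x) and 0.32 (Dgkh) had standard errors of 1.02, 1.04, 1.01 and 0.86. The sign turned to lower in hyperlipidemic libraries for all 4 under quantile normalization and under scaling to total circRNA FPKM, and for Hipk3 and Dgkh under median-of-ratios scaling. For Hipk3 it also turned without normal replicate 4. These standard errors are moderated: the fit draws each circle's variance toward that of the other circles, many of them listed at 0 in some libraries. They are therefore not the spread of these 4 circles alone. Each difference was smaller than its moderated standard error. Without the trend in the prior variance, limma adjusted p were 0.731 (Hipk3), 0.549 (Xpo7), 0.507 (Nf1x) and 0.574 (Dgkh).

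**Figure D3:**
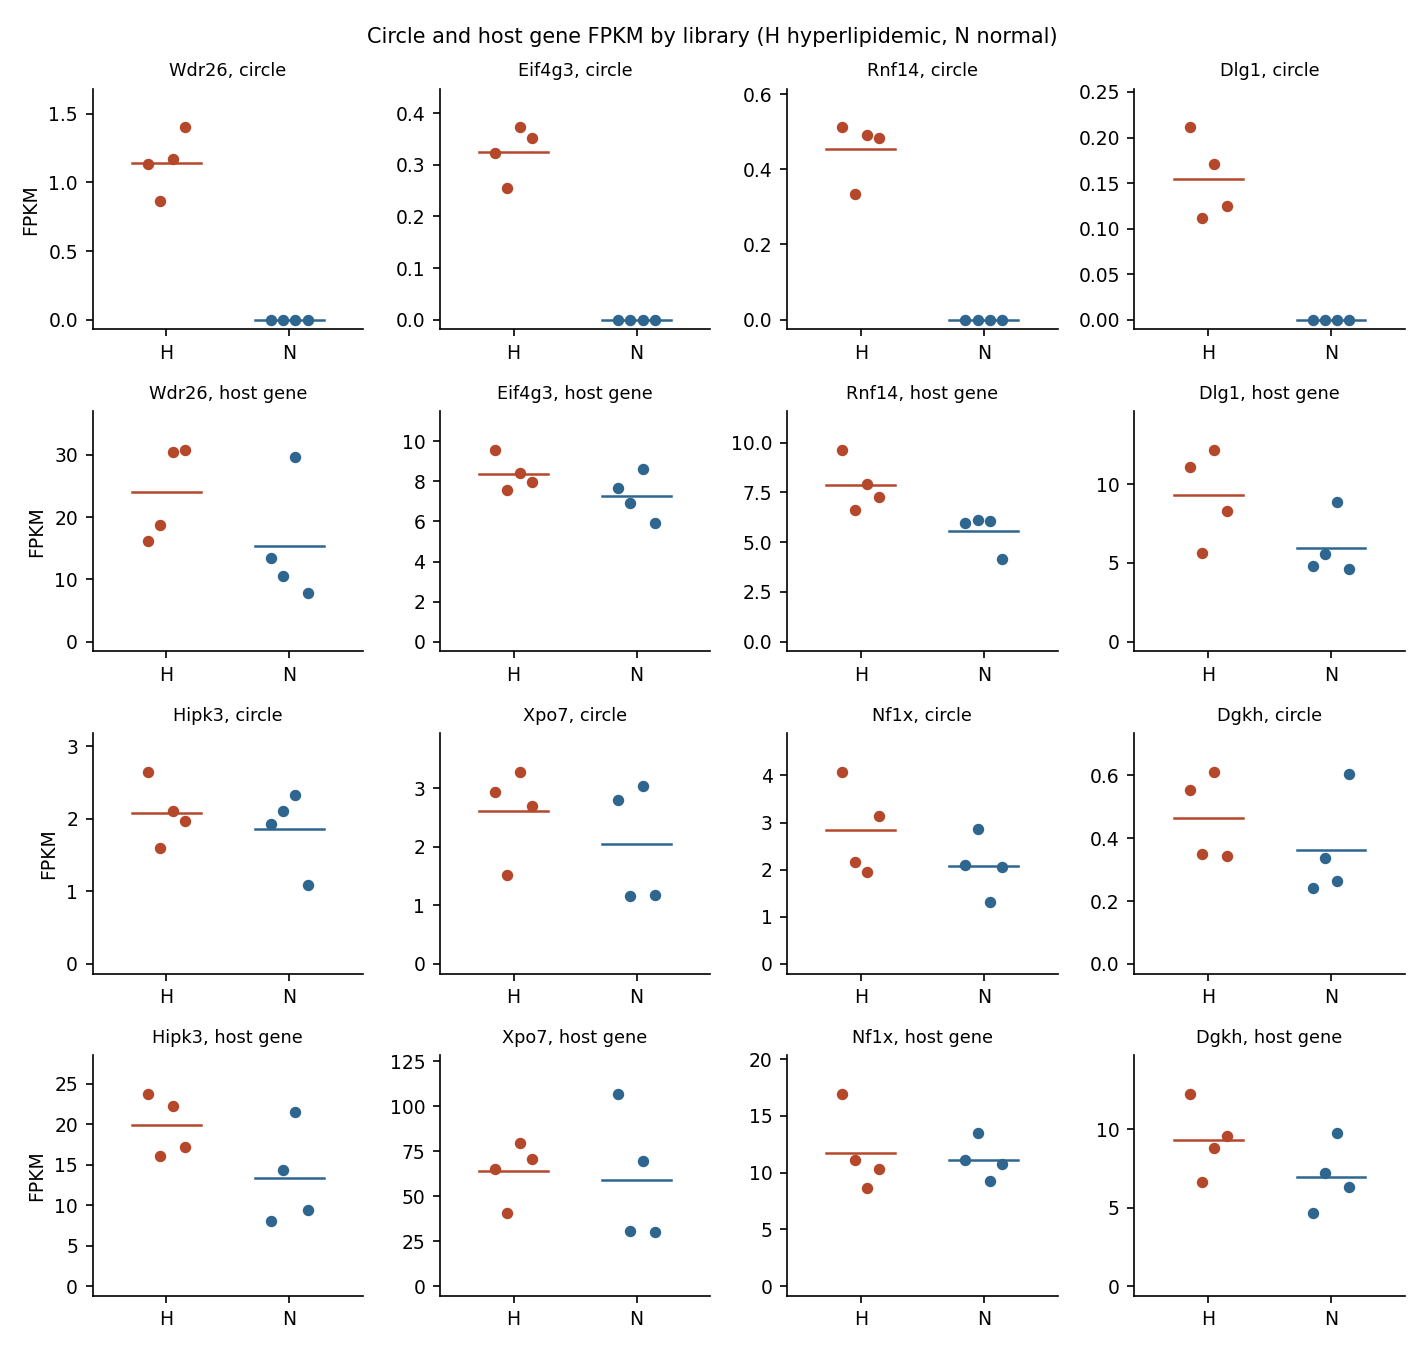
Circle FPKM (rows 1 and 3) and host gene FPKM (rows 2 and 4) in each library (points; H hyperlipidemic, N normal; line, mean; axes start near 0 and differ between panels). The circles of Wdr26, Eif4g3, Rnf14 and Dlg1 lie at 0 in all N libraries while their hosts lie between 4.16 and 29.7 FPKM, and the circles of Hipk3, Xpo7, Nf1x and Dgkh overlap between the groups.

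Among the members above 0 in at least 1 library of each group, levels were compared over the libraries above 0 only. Of 178 such circles, 114 had the higher mean in hyperlipidemic and 64 the lower, beside 327 and 225 of 552 over all circRNAs. The median log2 ratio of the means was 0.21, beside 0.12 over the 552, and 159 of the 178 lay within 2-fold. For 99 of the 178 the normal mean is the value of 1 library, which for 91 of them is normal replicate 2. The comparison thus rests largely on that library. The ratio ranged from -2.63 for Rnls, on 1 hyperlipidemic and 3 normal libraries, to 2.95 for the unnamed locus AABR07065821.1, on 3 hyperlipidemic and 1 normal library. Circular Lat2, from an adaptor gene of immune receptors, was above 0 in 7 libraries. It had 0.126, 0.213, 0.122 and 0.172 FPKM in hyperlipidemic and 0, 0.427, 0.136 and 0.716 FPKM in normal libraries, and the groups overlapped (adjusted p = 0.743).

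**Figure D4:**
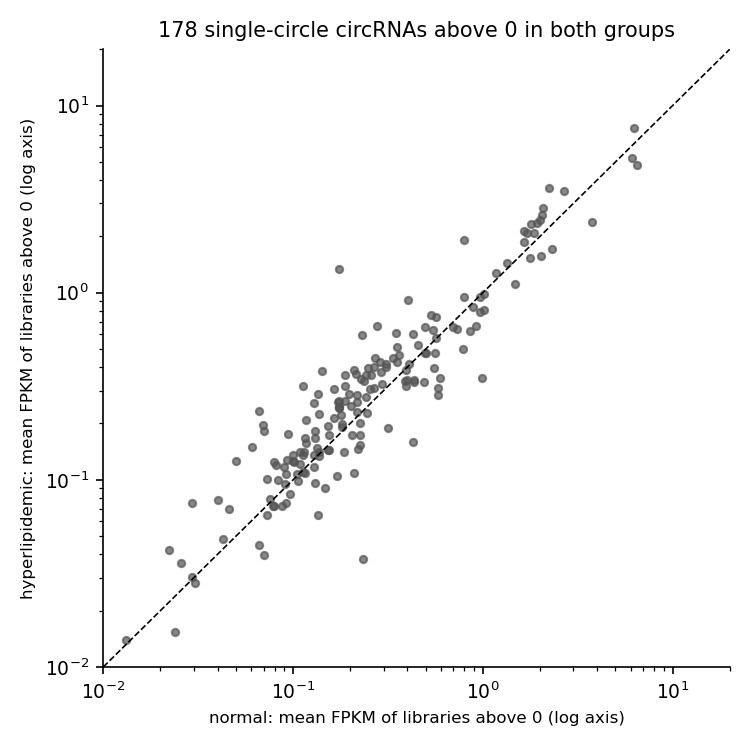
Mean FPKM over the libraries above 0 in the hyperlipidemic group (vertical, log axis) against the same in the normal group (horizontal, log axis) for the 178 single-circle circRNAs above 0 in both (points; dashed line, equality). Of these 159 lie within 2-fold of the line, 114 above it and 64 below. For 99 of them the normal mean is 1 library, which for 91 is normal replicate 2.

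Among the deposited circles, the share of libraries in which a circle was listed differed little with its level. Ordered by that level and cut into 3 sets of 91, members of the lowest set (0.0137 to 0.159 FPKM) were above 0 in 75.5% of hyperlipidemic and 26.9% of normal libraries. In the middle set the shares were 78.3% and 27.2%, and in the highest set (0.385 to 7.08 FPKM) 80.2% and 27.5%. Every deposited circle is above 0 in at least 3 libraries of a group, which 260 of 273 members met in the hyperlipidemic group. This rule held the hyperlipidemic shares high in each set, and circles seen more sparsely are missing here. The shares therefore cannot show whether listing depends on level. Of 44 members that reached 1 FPKM in some library, 41 were listed at 0 in another. Of these 41, 22 had every value above 0 at 1 FPKM or more. Sp3, a zinc finger transcription factor that binds GC boxes, gave the most abundant member circle. It had 6.94, 5.71, 10.2 and 0 FPKM in hyperlipidemic libraries and 0, 6.48, 0 and 6.11 FPKM in normal ones (adjusted p = 0.509). Its values were thus either above 5 FPKM or 0. Plbd1, a phospholipase B-like gene, gave a circle of 5.0, 4.42, 5.22 and 4.50 FPKM in hyperlipidemic libraries, within a narrow range. In normal libraries that circle had 6.51 FPKM in replicate 2, above every hyperlipidemic library, and 0 in the other 3 (adjusted p = 0.174). Evi5, a regulator of Rab GTPases, gave a circle of 7.13, 4.13, 0 and 4.53 FPKM in hyperlipidemic libraries and 0, 6.08, 0 and 0 FPKM in normal ones (adjusted p = 0.281). Cnot1, the scaffold of the CCR4-NOT deadenylase, gave one of 4.50, 3.08, 0 and 3.33 FPKM in hyperlipidemic and 0, 0, 2.23 and 0 FPKM in normal libraries (adjusted p = 0.281). Gdi2, a Rab GDP dissociation inhibitor, gave 1.66, 1.27, 1.42 and 1.42 FPKM in hyperlipidemic libraries and 0, 1.35, 0 and 0 FPKM in normal ones (adjusted p = 0.178). In Plbd1, Evi5 and Gdi2 the sole normal value above 0 came from replicate 2 and fell inside or above the hyperlipidemic range.

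The host genes themselves were measured in the gene table for 265 of the 273 members. None of the 265 was called in either direction in the fit over all 13742 genes with a mean of at least 0.5 FPKM, on log2(FPKM + 1), beside 20 called higher (0.146%) and 171 called lower (1.24%). At an unadjusted p under 0.05 there were 34 of the 265 hosts (12.8%), beside 1787 of all 13742 genes (13.0%). Of the hosts, 80.0% had a log2 difference above 0, with a median of 0.30. Several-circle hosts were close to this, at 79.2% and 0.28, against 65.0% and 0.18 over all genes tested. After median-of-ratios scaling the medians were 0.15 for member hosts and 0.05 for all genes tested. The Wdr26 gene (chromosome 13, 99493120 to 99531959 on Rnor_6.0) had 16.2, 18.8, 30.3 and 30.8 FPKM in hyperlipidemic libraries and 13.4, 10.6, 29.7 and 7.88 FPKM in normal ones (log2 difference 0.72, adjusted p = 0.44). The Eif4g3 gene (chromosome 5, 156396695 to 156564037) had 9.59, 7.58, 8.42 and 7.95 FPKM in hyperlipidemic and 7.68, 6.95, 8.60 and 5.91 FPKM in normal libraries (0.18, adjusted p = 0.721). The Rnf14 gene (chromosome 18, 31444472 to 31468640) had 9.65, 6.63, 7.94 and 7.27 FPKM in hyperlipidemic and 5.96, 6.10, 6.05 and 4.16 FPKM in normal libraries (0.43, adjusted p = 0.443), without overlap. The Dlg1 gene (chromosome 11, 72163749 to 72378895) had 11.1, 5.60, 12.2 and 8.29 FPKM in hyperlipidemic and 4.78, 5.54, 8.85 and 4.6 FPKM in normal libraries (0.56, adjusted p = 0.443). All 4 hosts were thus expressed in every normal library in which their circles were listed at 0.

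The same held across the members. Of 1060 pairs of a circle and a normal library, the circle was at 0 in 72.5%, and the host had at least 1 FPKM in 96.4% of those. The host's median was 7.36 FPKM where the circle was at 0 and 7.92 FPKM where it was above 0. In hyperlipidemic libraries 21.9% of 1060 pairs had the circle at 0, with host medians of 9.27 and 9.47 FPKM. Over these pooled pairs, host level differed little between pairs with and without the circle, in either group. The medians pool different hosts and libraries, so no host is compared with itself. In the normal group, replicate 2 held 171 members above 0, against 37, 54 and 35 in replicates 1, 3 and 4. The pairs above 0 there thus come mostly from replicate 2.

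The difference of each circle was then set against that of its host in a limma fit of log2(circle + 0.1) minus log2(host + 0.1). It covered 474 circRNAs, 179 of them members, and called 2 members higher relative to the host, Wdr26 (adjusted p = 0.0312) and Rnf14 (adjusted p = 0.0362), beside 7 of 474 (1.48%). Both circles are at 0 in every normal library and passed the filter through hyperlipidemic libraries alone, so the filter and the 0.1 added bear on this call as on the test of the circle itself. Eif4g3 lay just outside (adjusted p = 0.0528), and Dlg1 did not pass (adjusted p = 0.513). The block, quantile normalization and a pseudocount of 1 each left 0 members called. With no filter 1 member was called, beside 6 of 646 circRNAs (0.929%). Without normal replicate 2 it was 14 members, beside 57 of 306 (18.6%). Members with their sole normal value there are then at 0 in all normal libraries left, so the filter bears on this count too. Among circles that lay low against their hosts, Brca1, the DNA repair gene, had a circle of 0, 0.117, 0.0446 and 0.159 FPKM in hyperlipidemic libraries and 0, 0.0922, 0 and 0 FPKM in normal ones. Its host had 9.45, 6.95, 8.56 and 12.6 FPKM in hyperlipidemic and 5.06, 5.10, 2.41 and 2.05 FPKM in normal libraries, without overlap. The log2 difference of circle minus host was -0.90 (adjusted p = 0.472), and the host's own adjusted p was 0.139.

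**Figure D5:**
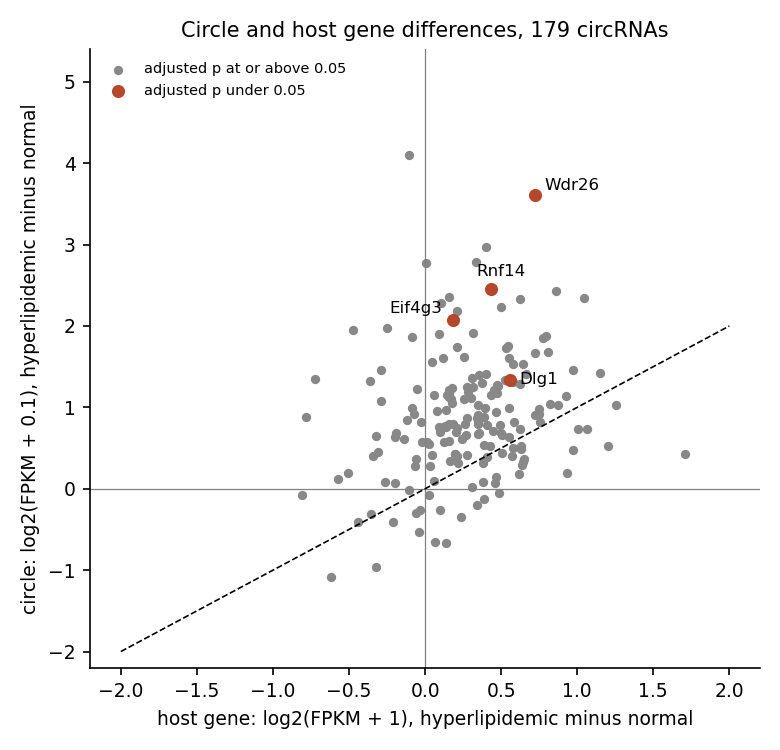
Log2 difference, hyperlipidemic minus normal, of the circle (vertical, log2(FPKM + 0.1)) against that of its host gene (horizontal, log2(FPKM + 1)) for the 179 members tested with a host value (points; dashed line, equal differences; coloured, circle adjusted p under 0.05). The 4 coloured circles lie above 1 while their hosts lie between 0.18 and 0.72; for circles at 0 in a whole group the vertical value depends on the 0.1 added.

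Within groups, circle and host moved together weakly. Pearson's r over the 8 libraries, after removal of group means, had a median of 0.077 over 265 members and is a description without a test, since many of the values are listed at 0. With each library left out it ranged from 0.022, without hyperlipidemic replicate 1, to 0.16, without hyperlipidemic replicate 3. It was 0.025 without normal replicate 4, 0.12 without normal replicate 1, and between 0.077 and 0.11 without each of the other libraries. For circles above 0 in all 8 libraries it was 0.94 for Xpo7, 0.86 for Nf1x, 0.66 for Hipk3 and 0.17 for Dgkh. Xpo7 shows this library by library: its host had 65.4, 40.6, 79.5 and 70.5 FPKM in hyperlipidemic and 107, 30.4, 69.4 and 30.0 FPKM in normal libraries. Circle and host were both lowest in hyperlipidemic replicate 2 of that group, and both low in normal replicates 2 and 4. The lowest r were -0.82 for Lin54, -0.80 for Pspc1 and -0.73 for Nfatc1, whose circles are each listed at 0 in at least 3 libraries. Circles listed at 0 in some libraries also reached high r, up to 0.93. The quartiles over the 265 members were -0.15 and 0.35, and the median over 646 circRNAs with a host row was 0.085.

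A circle was a small share of its host's FPKM. The mean circle FPKM was 1.41% of the mean host FPKM in the median member (quartiles 0.872% and 2.65%), and above 10% in 10 members. The highest were Evi5 at 46.4%, Nf1x at 21.5%, Pwwp2a, a reader of the histone variant H2A.Z, at 18.3%, and Samd4a, a translational repressor, at 15.2%. Sp3 stood at 12.8% and Hipk3 at 11.9%. The sources used here do not give the length behind a circle's FPKM, so these shares are ratios of deposited values and not of molecules. Member hosts were long genes: the median locus spanned 67764 bp, close to 71107 bp for 77 several-circle hosts, against 16001 bp for all genes tested. Their median level of 8.41 FPKM lay between 13.1 FPKM for several-circle hosts and 4.79 FPKM for all genes tested. The shortest tested hosts still gave circles, among them Ubl5 over 1714 bp, a ubiquitin-like splicing factor, and Srsf7 over 5948 bp, a splicing factor. Circular Srsf7 had 3.16, 1.73, 2.47 and 0 FPKM in hyperlipidemic and 0, 1.54, 2.49 and 0 FPKM in normal libraries (adjusted p = 0.52). The longest tested was Camta1 over 875924 bp, whose circle had 0.124, 0.0714, 0 and 0.13 FPKM in hyperlipidemic libraries. In the normal libraries circular Camta1 had 0.187, 0.0776, 0.105 and 0.0933 FPKM, above 0 in all 4 (adjusted p = 0.618).

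RefSeq promoters of GRCr8 were matched by symbol for 206 member hosts. The GC box letters seen in Wdr26 and Dlg1 occurred on either strand in 145 of them (70.4%), in 67.9% of 56 several-circle hosts, in 62.5% of 8710 genes tested and in 34.9% of all 27457 promoters. The letters CCAAT were in 32.5% of member hosts, 30.4% of several-circle hosts and 38.1% of genes tested. The letters AGATAA, the site bound by GATA factors of blood cells, were in 4.4%, 5.4% and 6.2%. The median G and C content was 65.0% for member hosts, 63.8% for several-circle hosts and 61.0% for genes tested. These shares are a description of the windows, and letters alone say nothing of binding.

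Member hosts were grouped by lists of genes known in this tissue. From the 6 lists of cell types or bone 0 members were called, beside 2.46% of all circRNAs tested. The median log2 difference given with each list covers its members past the filter and stands beside 1.15 over all 568, which were kept by the same filter. Of the lists with 2 or more members tested, quantile normalization turned the median below 0 in all but the red cell (0.16) and megakaryocyte (0.07) lists. Red cell genes gave 4 members, and 4 more genes of that list are several-circle hosts, which are not members. Slc25a37, the mitochondrial iron importer mitoferrin, had a circle of 1.93, 1.35, 0 and 2.49 FPKM in hyperlipidemic and 0, 0.795, 0 and 0 FPKM in normal libraries (adjusted p = 0.281). Zfpm1, a cofactor of GATA1, had one of 0.643, 0.418, 0 and 0.485 FPKM in hyperlipidemic and 0, 0.351, 0 and 0 FPKM in normal libraries (adjusted p = 0.281). Car2, a carbonic anhydrase of red cells and osteoclasts, had a circle of 3.11, 1.77, 4.69 and 0 FPKM in hyperlipidemic libraries and 0 in all normal ones, and fell under the filter. Its host had 365, 280, 474 and 448 FPKM in hyperlipidemic and 589, 220, 284 and 279 FPKM in normal libraries, so the circle was at 0 in normal replicate 1 where the host was highest. With Xpo7 the 3 tested members of this list all had log2 differences above 0 (median 1.41), 2 of 3 after quantile normalization or scaling to total circRNA FPKM. Both megakaryocyte members were above 0 (median 1.41), 1 of 2 after quantile normalization. Fli1, a transcription factor of platelet precursors, had a circle of 0.415, 0.289, 0.349 and 0.319 FPKM in hyperlipidemic and 0, 0.398, 0 and 0 FPKM in normal libraries (adjusted p = 0.277). Gfi1b, a repressor needed for red cells and platelets, had one of 0.389, 0.282, 0 and 0.531 FPKM in hyperlipidemic and 0, 0.267, 0 and 0 FPKM in normal libraries (adjusted p = 0.281). In all of these except Xpo7 and Car2 the sole normal value came from replicate 2.

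White cell and bone lists gave few members. Several-circle hosts, left out by the rule, numbered 4 in the bone and cartilage list. The granulocyte and macrophage, lymphoid and osteoclast lists held 1 each. Ms4a3, a marker of granulocyte precursors, had a circle of 0.776, 0.507, 0.717 and 0 FPKM in hyperlipidemic and 0, 0.919, 0 and 0 FPKM in normal libraries (adjusted p = 0.309). Ikzf1, the lymphoid transcription factor Ikaros, had a circle of 0.644, 0.390, 0.570 and 0.689 FPKM in hyperlipidemic and 0, 0.465, 0.778 and 0.466 FPKM in normal libraries (adjusted p = 0.587), with a difference that turned below 0 under quantile normalization and scaling to total circRNA FPKM. Ikzf1 is thus among the few members listed in 3 or more libraries of both groups. Runx2, the transcription factor of osteoblasts, was the sole member from the list of 37 bone and cartilage genes. Its circle had 0.394, 0.244, 0.298 and 0.298 FPKM in hyperlipidemic and 0, 0.288, 0.247 and 0 FPKM in normal libraries (adjusted p = 0.293). The Runx2 host had 4.67, 5.68, 2.61 and 1.95 FPKM in hyperlipidemic and 14.95, 4.73, 2.16 and 2.15 FPKM in normal libraries (adjusted p = 0.826). Osteoclast genes gave the members Car2 and Nfatc1, both under the filter and opposite in the group that held the circle.

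General lists of nuclear and regulatory genes gave more members, and 0 of those listed were called, beside 14 of 568 circRNAs (2.46%). With at most 10 members tested per list, 0 is near that share and says little about these genes. The ubiquitin list does not hold Wdr26 and Rnf14, whose circles were called, nor Mdm2, and the chromatin list does not hold Ino80. Of 5 cell cycle members 3 were tested, all with log2 differences above 0 (median 0.52), 0 of 3 after quantile normalization and 2 of 3 after scaling to total circRNA FPKM. Top2a, the DNA topoisomerase of dividing cells, had a circle of 1.71, 1.27, 0 and 2.06 FPKM in hyperlipidemic libraries and 0 in all normal ones, and fell under the filter. Its host had 72.9, 51.5, 103 and 87.0 FPKM in hyperlipidemic and 58.1, 45.0, 67.0 and 40.0 FPKM in normal libraries (adjusted p = 0.401). Kif23, a kinesin of cell division, showed the same pattern at 0.499, 0.281, 0 and 0.528 FPKM in hyperlipidemic libraries and 0 in normal ones. Of 10 chromatin members 6 were tested, 4 with log2 differences above 0 and 2 below (median 1.18), 3 and 3 after quantile normalization. Arid1a, a subunit of the SWI/SNF remodeller, had a circle of 0.719, 0.868, 0.939 and 0.844 FPKM in hyperlipidemic libraries and 0, 1.16, 0.622 and 0 FPKM in normal ones (adjusted p = 0.293). Crebbp, a histone acetyltransferase, had one of 2.39, 2.37, 0 and 3.47 FPKM in hyperlipidemic libraries and 0 in normal ones. The Crebbp host stood at 17.5, 14.4, 12.3 and 15.9 FPKM in hyperlipidemic and 18.1, 16.5, 14.8 and 15.8 FPKM in normal libraries, so its groups overlapped (adjusted p = 0.813). Of 9 members from the ubiquitin list 8 were tested, 7 with log2 differences above 0 and 1 below (median 1.14), 3 and 5 after quantile normalization and 5 and 3 after scaling to total circRNA FPKM. Itch, a HECT-type ligase, had a circle of 0.469, 0.320, 0 and 0.462 FPKM in hyperlipidemic and 0, 0.307, 0 and 0 FPKM in normal libraries (adjusted p = 0.281). Herc1, the member below 0, had 0.194, 0.112, 0 and 0.125 FPKM in hyperlipidemic and 0.181, 0.110, 0 and 0.173 FPKM in normal libraries (adjusted p = 0.94). Of 13 hosts of circles known from other mammals 10 were tested, all with log2 differences above 0 (median 1.02), 9 after median-of-ratios scaling, 4 after quantile normalization and 6 after scaling to total circRNA FPKM. Hipk3, Arid1a, Itch and Ash1l are among them.

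Genes that act in circle formation, export and decay were also listed. Of 56 such genes 52 had a row and 50 were tested, and 0 were called in either direction, beside 1.39% of all genes. At an unadjusted p under 0.05 there were 2 of 50 (4.0%), a smaller share than the 13.0% of all genes: the splicing factors Hnrnpa1 and Sf3b1. Hnrnpa1 had 60.1 ± 12.0 FPKM in hyperlipidemic and 31.6 ± 15.7 FPKM in normal libraries (SD, n = 4 each; limma adjusted p = 0.285). Sf3b1 had 46.5 ± 9.06 FPKM in hyperlipidemic and 30.3 ± 7.83 FPKM in normal libraries (adjusted p = 0.329). Dhx9, a helicase that unwinds the paired introns, had 21.9 ± 3.76 FPKM in hyperlipidemic and 16.8 ± 3.48 FPKM in normal libraries (limma adjusted p = 0.495). Adar, the RNA editing enzyme, had 14.5 ± 3.8 and 14.2 ± 2.11 FPKM (adjusted p = 0.996). Mbnl1 had 27.6 ± 4.09 FPKM in hyperlipidemic and 31.1 ± 8.46 FPKM in normal libraries (adjusted p = 0.799), and Qki had no row. Of the 50, 42 had a log2 difference above 0 and 8 below, with a median of 0.20 beside 0.18 over all genes. After median-of-ratios scaling 27 were above 0 (median 0.05 beside 0.05), and after quantile normalization 33 (0.12 beside 0.07).

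The authors' deposited table marks 2 members as up (Wdr26 and Car2) and 3 as down (LOC100909700, Evi5 and Hnrnph1), at p-values whose lowest q-value among the members is 0.173. For 101 members the deposited log2 value in the authors' table is below 0 although the mean FPKM is higher in hyperlipidemic libraries, and for 1 the other way round. Evi5, for example, has a deposited log2 value of -1.57 in the authors' table beside mean values of 3.95 FPKM in hyperlipidemic and 1.52 FPKM in normal libraries. Hnrnph1 has -1.23 in the authors' deposited table beside 2.62 and 1.34 FPKM. The sources used here do not give the formula behind those values, and the directions above rest on the FPKM.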

How the data were processed

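Bone within 1 mm of the implant was ground and its total RNA (3 ug) depleted of ribosomal RNA, made into dUTP strand-specific libraries and sequenced as 150 bp paired reads, per the labels' protocols. The submitters' processing notes name build Rnor_6.0 and the tools StringTie 1.3.3b, HISAT2 2.1.0 and bcl2fastq 1.8.4; no source used here names the circRNA caller, its filters or the length behind a circle's FPKM. The authors deposited FPKM per gene and circRNA and library, a fold change (ratio) with its log2 value, and p-values and q-values from a test that no source used here names. Depth is unknown, so no counting interval is given. All 8 libraries were grouped by the labels, and 0 per-sample columns were unmatched.

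Host values were joined by symbol; where a symbol had 2 rows the more abundant was used (2 members). In R 4.3.3, limma 3.58.1 with a trended prior compared the groups over all rows past the filters, with Benjamini-Hochberg adjustment at 0.05; library measures were compared by exact permutation over 70 label assignments. The methods were tested on simulated data drawn with Gaussian noise around each row's mean. Those data did not imitate values listed at 0 or a filter passed through a single group. They therefore do not bear on calls of circles at 0 in every normal library. Named members were those called, the 10 with the smallest p in each direction, the 10 most abundant, the 4 most abundant of each list, the 5 farthest above and below their host, and the 5 longest and shortest; since circle spans were not used here, the host locus stood in. Other names, such as Dgkh, Fam65b, Lin54, Herc1 and Samd4a, were chosen after their values were seen, and not all that the rule names are given. Some members are not reported here. The members and lists were chosen with earlier results of these data known. Alternatives were another pseudocount, other filters, scalings, no trend, a block for the replicate number and each library left out; scaling to total circRNA FPKM and levels over libraries above 0 were chosen after seeing the data.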

Additional observations from a re-analysis of the deposited data

Results flagged for a closer look

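In 226 groups of 4 values, for the circles and hosts of the members named here and for library measures, 34 held a value whose gap to its neighbour exceeded Dixon's critical share of the group's range. Chance gives about 1 in 20 such groups, and a group with 3 values at 0 and another above 0 always counts. Of the 27 circle values, 21 were from normal replicate 2, which also held 171 members above 0, far from the other normal libraries. Over all members, 91 had their sole normal value above 0 there.

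Among the circles named, those with their sole normal value in replicate 2 were Plbd1 (6.51 FPKM), Evi5 (6.08), Lin54 (1.94), Ubl5 (1.76), Gdi2 (1.35), Ms4a3 (0.919), Slc25a37 (0.795), Fli1 (0.398), Zfpm1 (0.351), Itch (0.307), Gfi1b (0.267), Ash1l (0.243), Ino80 (0.23), AABR07065821.1 (0.174), C2cd3 (0.136), Trappc6b (0.135), Eya3 (0.112), Agtpbp1 (0.102), Mdm2 (0.094), Brca1 (0.0922) and Epb4.1l5 (0.0222). The sole normal value of Cnot1 was 2.23 FPKM in replicate 3, and circular Nfatc1 was at 0 in normal replicate 1, unlike the other normal libraries. In hyperlipidemic libraries such circles were Rnf14 at 0.334 FPKM in replicate 2, the lowest of its group, Rnf121 at 0.872 in replicate 3, the highest, and, as sole values above 0 in the group, Rnls at 0.0376 in replicate 2 and Abca13 at 0.0901 in replicate 1.

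Host values standing apart were Arid1a at 9.62 FPKM, Itch at 12.0 FPKM and Acer3 at 15.7 FPKM in hyperlipidemic replicate 2, and in normal libraries Rnf14 at 4.16 FPKM in replicate 4, Fam65b at 7.94 FPKM in replicate 3 and Abca13 at 9.10 FPKM in replicate 3.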

How the results depend on the processing

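Members called higher numbered 4, and 0 with a pseudocount of 1, above 0 in at least 6 libraries, quantile normalization, the replicate block or total circRNA FPKM scaling. With no filter 80 members were called higher and 2 lower. Beside them, 218 of all 774 circRNAs were called higher and 221 in either direction. Leaving out each library gave 0 to 32, the highest without normal replicate 2. Circles called higher against their hosts numbered 2, and 0 with a pseudocount of 1, at least 6 libraries, quantile normalization or the replicate block, 1 with no filter or no trend, and 0 to 14 with each library left out. Hosts had 0 calls under every alternative run. The median log2 difference of members was 0.82, 2.17 with a pseudocount of 0.01, -0.36 with quantile normalization, and 0.60 to 1.07 with each library left out.

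Quantile normalization reversed Dlg1 (-0.028), Hipk3 (-1.18), Xpo7 (-0.69), Nf1x (-0.87) and Dgkh (-1.44). Scaling to total circRNA FPKM reversed Hipk3 (-1.31), Xpo7 (-1.08), Nf1x (-1.08) and Dgkh (-0.97), and median-of-ratios scaling, which rests on 7 circRNAs, reversed Hipk3 (-0.22) and Dgkh (-0.026). With each library left out Hipk3 ranged from -0.044 to 0.30. Why these values moved was not tested, except that leaving out a hyperlipidemic library drops circles at 0 in normal libraries under the filter. Leaving out normal replicate 2 puts the 91 members with their sole normal value there at 0 in every normal library left. Deviations of same-numbered libraries correlated at r of -0.067 to 0.19 for circRNAs and 0.011 to 0.13 for genes. Not every pair was over 0.1, so the numbers were not taken to pair the libraries, although for genes 3 of the 4 hyperlipidemic libraries correlated best with the normal library of their own number. Values at 0 and unknown depth limit every difference here, since a circle at 0 is not shown to be missing.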
